A study of Mus musculus and Rattus norvegicus with 24 samples.

Results

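The comparison set adult rat cardiomyocytes against cardiomyocytes that had been grown from mouse stem cells and had then spent 30 days in a rat heart. Its question was which genes still differed between grafted and adult heart muscle cells after that time. It held 16 of the 24 single cells of the series, 8 in each group, and they were chosen by their titles and by no measured value. The adult cells were wild type and came from ventricular tissue of adult rats. The transplanted cells came from mouse embryonic stem cells with the genotype Isl1-Cre, Rosa-RFP and aMHC-GFP, were injected into neonatal rat hearts as cardiomyocytes, and were isolated from those hearts again. In such a line Cre follows the Isl1 gene of heart progenitors, and GFP follows the promoter of alpha myosin heavy chain, so it marks cells that already express that gene. The other 8 cells of the series, from the same stem cell line after 30 days in a dish, are given here only side by side. Cells were sorted or picked by hand, and which cell was taken how is not stated. Adult and transplanted cells differed in species, genotype, age and history, and these cannot be told apart. A mouse build is the only one named for all cells, so ratios and zeros may also hold how rat reads map to mouse genes, which cannot be told apart from the levels in the cells. The labels name no animal for any cell, so each group was 1 sample, and no difference between the groups could be tested.

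Heart muscle cells change their program between birth and adulthood. They trade fetal forms of sarcomere and mitochondrial proteins for adult ones, turn from glucose to fatty acids as fuel, build a dense network of mitochondria and sarcoplasmic reticulum, and leave the cell cycle. Stem cell-derived cardiomyocytes in a dish usually stop early on that path. Skeletal alpha actin, beta myosin heavy chain and the natriuretic peptides are made in the fetal heart and return under load.

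Levels below are given as CPM, the counts of a gene added up over the 8 cells of a group and scaled so that the whole group comes to 1000000. Each ratio compares the group levels, and the brackets after it hold its exact 95% interval. If the ratio shifted more than 1.5 times, or crossed 2-fold, once a given cell was removed, the bracket also names that cell and the ratio without it. Intervals cover counting error only, because amplified reads are not independent molecules. A group at 0 was set to 3 counts over the group, which is 2.36 CPM in adult and 2.30 CPM in transplanted cells, and the ratio is then a lower bound.

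Total counts per cell were 108546 to 223744 in the adult cells and 88796 to 344224 in the transplanted cells, with medians of 148885.5 and 146660.5. Transplanted cell H, at 344224, was the deepest. Cultured cells had 16099 to 60789. Rn45s, the ribosomal RNA precursor, took a median of 1.23% of counts per adult cell and 1.20% per transplanted cell. With every cell thinned to 88796 counts, a median of 865.5 genes was detected per adult cell (608 to 1610) and 724.5 per transplanted cell (553 to 1368). As deposited the medians were 930 and 754. The ranges overlapped.

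Both groups had like levels of their abundant genes, and among these Myl2 and Tnni3 were far higher than in cultured cells. The 20 most abundant genes took 33.6% of the adult and 34.5% of the transplanted counts, and the largest ratio among them was 1.48, for Actc1, cardiac actin. Myl2, the ventricular regulatory light chain of myosin, had 24930 CPM in the lowest adult cell, 39661 in the median and 52316 in the highest. In the transplanted cells Myl2 ran from 26787 over a median of 43377 to 49291 CPM. The transplanted range of Myl2 thus lay inside the adult one. Tnni3, the adult cardiac troponin I, ran from 13054 over 35855 to 45644 CPM in adult cells and from 23937 over 34452 to 44143 CPM in transplanted cells, again inside the adult range. Cultured cells had 437 CPM of Myl2 and 116 CPM of Tnni3, with counts in 1 of 8 cells each. Other sarcomere genes were higher in cultured cells. Ttn, titin, had 45112 CPM there, 4056.5 CPM in adult and 2131.4 CPM in transplanted cells. Myh6, the alpha myosin heavy chain, had 2697, 1465 and 1094 CPM.

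Cells of different groups were about as alike as cells of the same group. Spearman's rho of log2(CPM + 1) between an adult and a transplanted cell had a median of 0.372 (0.314 to 0.443 over 64 pairs). Between 2 adult cells it was 0.360 (0.330 to 0.439, 28 pairs) and between 2 transplanted cells 0.376 (0.337 to 0.432, 28 pairs). An adult and a cultured cell had 0.0543 (-0.0179 to 0.193), and a transplanted and a cultured cell 0.0573. Between 2 cultured cells it was 0.0643 (-0.0087 to 0.221, 28 pairs). Cultured cells were thus about as unlike each other as they were unlike the other cells. These values are a description, since pairs share cells and depth moves them.

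**Figure D1:**
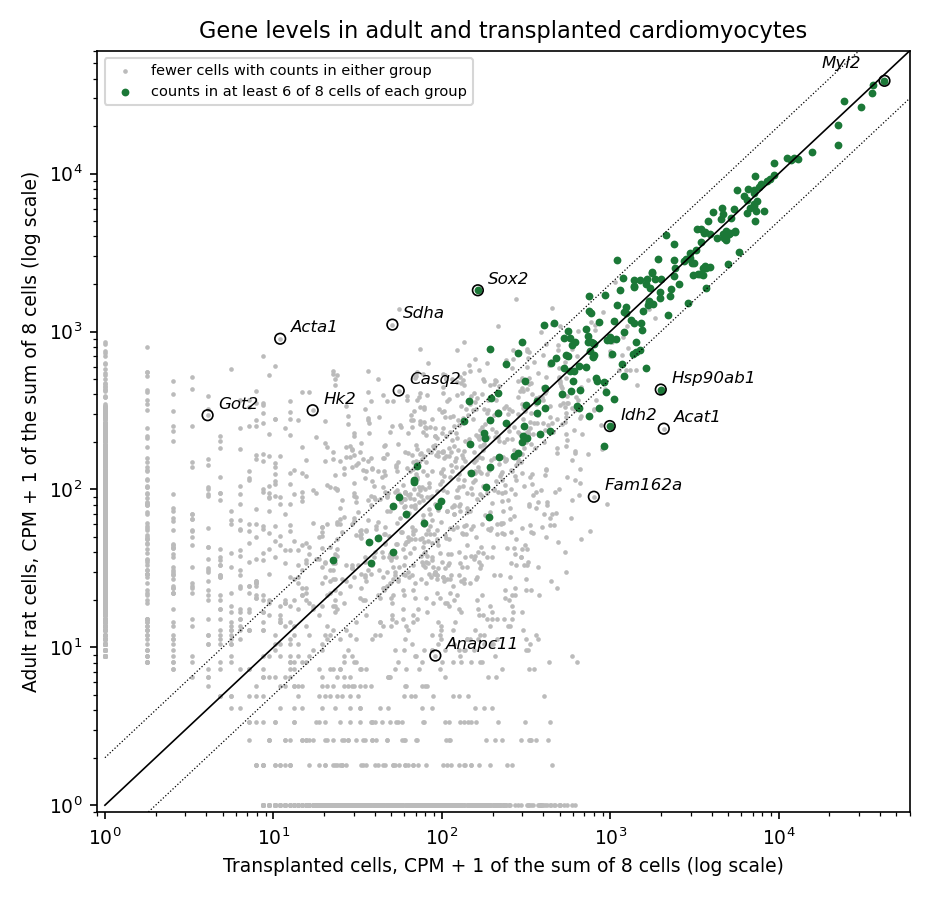
Level of each measured gene in adult cells (vertical axis) against transplanted cells (horizontal axis), both as CPM + 1 of the sum over 8 cells on log scales. Green points are genes detected in 6 or more cells of each group, open circles mark the named genes, the solid line is equality and the dotted lines are 2-fold. Abundant genes lie near equality, and the points beyond 2-fold are mostly genes found in few cells.

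Of 9595 listed genes, 4737 had a count in these 16 cells and 3501 had at least 10 counts over both groups and are called measured here. Among measured genes, 1551 (44.3%) were at least 2-fold higher in the adult sum and 1218 (34.8%) at least 2-fold higher in the transplanted sum, 79.1% in all. Most measured genes were seen in few cells. Counts lay in at most 3 of the 16 cells for 2310 of the 3501 measured genes, and in at most 1 cell of each group for 1542. No measured gene (0%) had all adult cells above or below all transplanted cells. No gene with counts in at least 6 cells of one group was at 0 in the other group.

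The share past 2-fold fell with the level. Below 10 CPM it was 93.3% (628 of 673 genes), from 10 to 100 CPM 86.3%, from 100 to 1000 CPM 64.8%, and at 1000 CPM and over 3.70% (5 of 135 genes). Those 5 genes were Chchd3 and Smpx, higher in adult cells, and Acat1, Hsp90ab1 and Prdx5, higher in transplanted cells. Among the 222 genes with counts in at least 6 cells of each group, a set added after the data were seen, the median ratio in either direction was 1.28. These genes took 70.8% of adult and 73.2% of transplanted counts. Only 12 (5.41%) of them were at least 2-fold higher in adult cells and 11 (4.95%) in transplanted cells, 10.4% in all. The 12 were Sox2, Bola3, Gabarap, Malat1, Cox20, Lmod2, Chchd3, Rplp2, Ak1, Smpx, Gng5 and Cycs. Among the 11 were Hsp90ab1, Idh2, Ndufab1, Uqcrc1, Prdx5, Mlf1, Oxct1, Vdac2, Mrpl33 and Mybpc3. Whichever single cell was left out, 6 of the 12 (Sox2, Bola3, Gabarap, Malat1, Cox20 and Chchd3) and 5 of the 11, among them Hsp90ab1, Idh2, Ndufab1 and Oxct1, stayed past 2-fold.

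**Figure D2:**
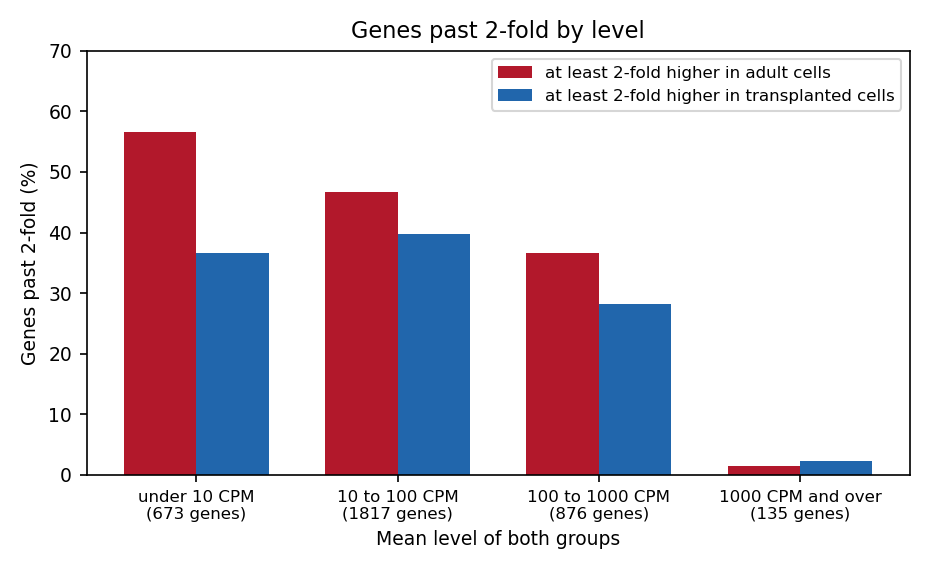
Share of measured genes at least 2-fold higher in adult cells (red) or in transplanted cells (blue), by the mean CPM of both groups. The bars fall from the genes under 10 CPM to the 135 genes at 1000 CPM and over, of which 2 were higher in adult and 3 in transplanted cells.

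Genes past 2-fold also differed in how far they rested on 1 cell. Of the 1551 genes higher in adult cells, 400 stayed at least 2-fold higher whichever single cell was left out, and of the 1218 higher in transplanted cells 220 did. The genes described below were ranked by ratio among those with at least 50 CPM, detection in 6 or more of the 8 cells on the higher side, and 2-fold or more also with every cell weighted alike. That left 38 genes higher in adult and 23 higher in transplanted cells, of which the first 15 in each direction were taken. Of these, 14 of 15 adult and 10 of 15 transplanted genes stayed past 2-fold whichever cell was left out. The filter and the ranking by ratio favour genes that stay. These shares therefore cannot be set against those of all measured genes and lend the ranked genes no separate support.

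The clearest sarcomere difference was in actin. Adult cells C, F, G and H added Acta1, skeletal alpha actin, to cardiac actin, with 105 to 511 counts each. Adult cells A, B, D and E had at most 3 counts of it and transplanted cells at most 10. Acta1 had counts in 7 of 8 adult cells, from 0 over a median of 261 to 3544 CPM, and in 3 of 8 transplanted cells, where the highest was 99.8 CPM. The ranges overlapped at the low end, and 4 adult cells stood above every transplanted cell. In the sums it was 899 against 9.98 CPM, 90.1-fold higher in adult cells (52.5 to 169.7, 56.2 without adult cell C, 360.4 without transplanted cell G). Actc1 ran the other way, from 10220 over 12993 to 26298 CPM in adult and from 7359 over 15820 to 36547 CPM in transplanted cells, 1.48-fold higher in transplanted cells (1.45 to 1.5). Cardiac actin thus made up 94.4% of the pair's counts in adult cells and 99.96% in transplanted cells. In the mouse genome mm10, Acta1 lies on chromosome 8 from 123891769 to 123894751 and Actc1 on chromosome 2 from 114047282 to 114053548. The 2 coding sequences are close relatives, so reads could be placed on either gene.

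The promoters of these 2 actin genes are known targets of serum response factor, which binds the CArG box. The 250 bases before the RefSeq start site (GRCm38.p6) are shown because 1 actin gene differed and its sister did not reach 2-fold. They are written 5′ to 3′ on the strand of the gene, the minus strand in both. The CArG box, searched on both strands, is in capitals. Only exact matches to CCWWWWWWGG were taken, with W for A or T. They were chosen after the values were seen.
Acta1, chr8:123894776-123895025: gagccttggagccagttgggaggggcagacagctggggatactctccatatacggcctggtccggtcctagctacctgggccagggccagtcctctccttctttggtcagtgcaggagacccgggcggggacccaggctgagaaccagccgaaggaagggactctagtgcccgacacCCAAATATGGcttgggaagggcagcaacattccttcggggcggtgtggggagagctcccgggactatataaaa
Actc1, chr2:114052876-114053125: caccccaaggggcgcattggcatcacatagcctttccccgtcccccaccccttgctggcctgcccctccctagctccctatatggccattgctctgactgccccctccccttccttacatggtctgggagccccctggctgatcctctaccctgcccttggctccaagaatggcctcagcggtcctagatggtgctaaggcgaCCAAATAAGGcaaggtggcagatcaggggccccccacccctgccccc
Both windows held 1 exact CArG box, beginning 73 bases and 47 bases before the RefSeq start site. An exact box was found in 1.5% of 32851 promoter windows of the same length. The gene spans given above come from GENCODE, whose starts differ, and the Actc1 window lies inside its span. This is the mouse sequence, and the adult cells were rat.

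Few fetal and stress genes were measured. The list of fetal and stress isoforms includes Acta1, so its values count that gene again. It had 5 measured genes of 12 listed. Of the 5, 4 were at least 2-fold higher in adult cells, against 44.3% of all measured genes, and none in transplanted cells. Without adult cell D, Ankrd1 and Myh7 were under 2-fold, and the list's median log2 ratio was 0.61 in place of 2.40. The list took 0.264% of adult and 0.0794% of transplanted counts, and single cells had 0.0620 to 0.439% and 0.00959 to 0.185%, which overlapped. Ankrd1, a stretch-responsive cofactor of the sarcomere, had counts in 8 adult and 4 transplanted cells, from 4.47 over 468 to 2793 CPM and from 0 over 41.6 to 1699 CPM. Its sum was 2.76-fold higher in adult cells (2.42 to 3.15, 1.53 without adult cell D, 7.77 without transplanted cell B). Nppb, the B-type natriuretic peptide, stood at 435 CPM in 8 adult cells and 517 CPM in 4 transplanted cells, a ratio of 1.19 towards the transplanted cells (1.06 to 1.33). Without transplanted cell H that ratio was 0.763, and without adult cell E 1.92. Acta2, smooth muscle actin, had 524 CPM in 5 adult cells and 1 count in 1 transplanted cell, 682-fold higher (122 to 26994, 372 without adult cell A, at least 203 without transplanted cell A). Acta2 is also in the list of smooth muscle and pericyte markers, whose most abundant member was Des, the muscle filament protein desmin. That list took 0.0984% of adult and 0.0265% of transplanted counts. The part of smooth muscle cells and pericytes in the Acta2 difference was not tested.

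Myosin heavy chain counts were mostly of the adult form in both groups. Myh6, the alpha chain of the adult rodent ventricle, had 1465 CPM in adult and 1094 CPM in transplanted cells, 1.34-fold apart (1.25 to 1.44). Myh7, the beta chain of the fetal ventricle, had 122 and 22.3 CPM. Its ratio of 5.48 (3.67 to 8.45, 15 without transplanted cell E) rested on adult cell D, which held 886 CPM, and was 0.764 without it. The alpha form made up 92.3% of the pair in adult cells (91.1 to 93.4) and 98.0% in transplanted cells (97.1 to 98.7), against 72.0% in cultured cells. The median cell was at 99.6% and 99.2%.

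Most other paired isoforms had like shares in the sums of both groups. Myl7, the atrial light chain, and Tnni1, the fetal troponin I form, had no count in any adult or transplanted cell, so Myl2 and Tnni3 made up 100% of their pairs. In cultured cells they made up 21.4% and 26.1%. Cox6a2, a muscle form of a cytochrome oxidase subunit, made up 99.3% and 99.6% of its pair with Cox6a1, against 27.5% in cultured cells. Cox8b made up 95.8% of its pair with Cox8a in adult cells and 91.6% in transplanted cells. Cox7a1 made up 69.1% and 63.1% of its pair with Cox7a2. Neither Cox8b nor Cox7a1 had a count in cultured cells. Slc25a4, the muscle ADP/ATP carrier, made up 92.2% and 96.1% of its pair with Slc25a5, and Ldhb, the heart form of lactate dehydrogenase, 70.7% and 67.9% of its pair with Ldha. Single cells spread widely in the last pair, from 6.06 to 100% Ldhb in adult and from 0 to 100% in transplanted cells. Eef1a2, the muscle and nerve form of a translation elongation factor, stood apart in the sums because of 1 cell. It had 65 counts against 127 of Eef1a1 in adult cells, or 33.9%, and 42 against 0 in transplanted cells. All 127 adult counts of Eef1a1 lay in adult cell F, which had 0 of Eef1a2. Only 2 cells of each group had at least 10 counts of the pair.

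**Figure D3:**
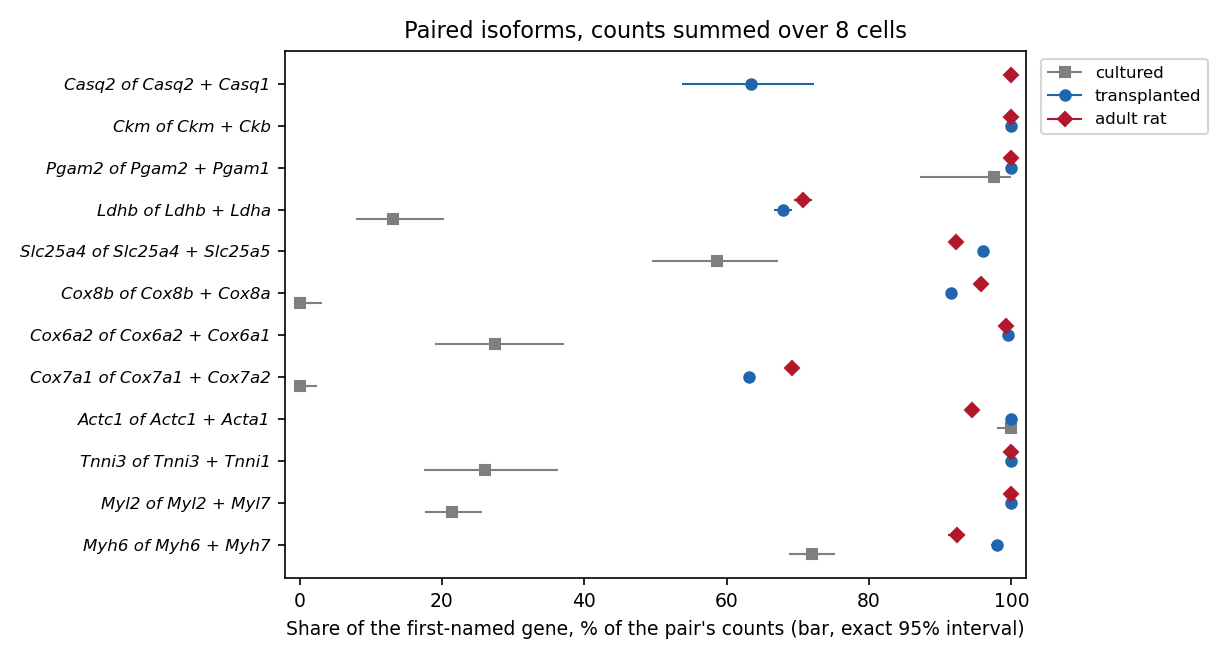
Share of the first-named isoform in each pair's counts summed over 8 cells, for adult (red), transplanted (blue) and cultured cells (grey), with exact 95% intervals, for pairs with at least 100 counts in adult and in transplanted cells. Adult and transplanted points lie close together in all pairs but Casq2 with Casq1, at 100% and 63.4%, and cultured points are drawn where the pair had at least 10 counts.

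Sarcomere lists took like shares of both groups. The thick filament list took 7.18% of adult and 7.78% of transplanted counts, with 2 of 11 measured genes at least 2-fold higher in each group. The thin filament list took 10.5% and 11.7%, with 1 of 9 genes higher in adult and 3 in transplanted cells. Among all measured genes 79.1% were past 2-fold in either direction, and among genes with counts in at least 6 cells of each group 10.4%. Ttn, the giant spring protein titin, was 1.90-fold higher in adult cells (1.82 to 1.99), and between 1.62 without adult cell G and 2.55 without transplanted cell B. It passed 2-fold also without adult cell A, C, E or H or transplanted cell G. Mybpc3, a myosin-binding protein of the thick filament, was 2.02-fold higher in transplanted cells (1.79 to 2.27), and 1.47 without transplanted cell D. It was also under 2-fold without transplanted cell B, C or F or adult cell A, B, C or D. The Z-disc and intercalated disc list had 11 of 22 genes higher in adult and 2 in transplanted cells, and the median log2 ratio was 1.02 (0.32 without adult cell G to 1.34 without transplanted cell D) against 0.37 over all measured genes (0.05 without adult cell C to 0.87 without transplanted cell B). Its 7 members with counts in at least 6 cells of each group had a median of 0.09 and none past 2-fold. Cmya5, a large Z-disc-associated protein, was 10.5-fold higher in adult cells (6.56 to 17.8, 4.42 without adult cell F, 25.8 without transplanted cell B).

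Calcium-handling genes had members on both sides. Pln, the inhibitor of the sarcoplasmic calcium pump, had 7916 CPM in adult and 5638 CPM in transplanted cells, 1.40-fold apart (1.36 to 1.45). Atp2a2, the pump, was 1.5-fold higher in adult cells (1.43 to 1.57), and 0.886 without adult cell H. Casq2, the calcium-binding protein of the cardiac sarcoplasmic reticulum, had counts in 7 of 8 adult cells, from 0 over 283 to 2377 CPM. Only 2 of 8 transplanted cells had counts of it, the higher at 451 CPM. Its ranges overlapped, and the sum was 422 against 54.5 CPM, 7.74-fold higher in adult cells (6.03 to 10.1, 4.39 without adult cell F, 69.9 without transplanted cell A). Casq1, the skeletal form, had no adult count and 31.5 CPM in transplanted cells, all of it in cell G. Over the 21 measured genes of excitation-contraction coupling, 8 were higher in adult and 4 in transplanted cells, against 44.3% and 34.8% of all measured genes, and the list took 1.85% and 1.40% of counts. The median log2 ratio was 0.49 (0.02 without adult cell H to 0.81 without transplanted cell B).

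**Figure D4:**
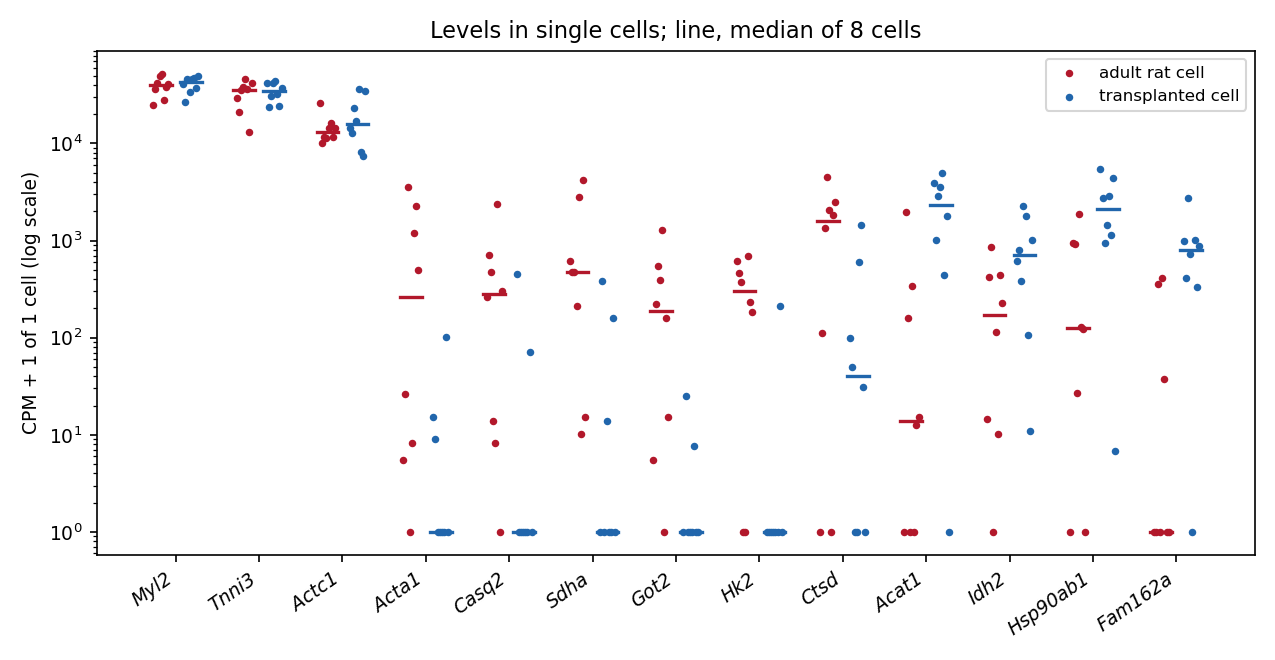
Level of 13 genes in each adult cell (red) and each transplanted cell (blue), as CPM + 1 on a log scale, with the median of 8 cells as a line. Myl2, Tnni3 and Actc1 overlap fully, Acta1 to Ctsd have most adult cells above most transplanted cells, and Acat1 to Fam162a have the reverse, with overlap in every gene.

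Respiratory chain genes had the smallest share past 2-fold of the 24 function lists. Complex I and II genes took 11.2% of adult and 11.9% of transplanted counts, and 2 of 40 measured genes were past 2-fold in each direction, where 44.3% and 34.8% of all measured genes were. Complex III to V genes took 17.8% and 18.2%, with 1 of 41 higher in adult and 2 in transplanted cells. In single cells the latter list took 14.6 to 19.5% and 16 to 19.6%. Most genes of both lists, 33 and 37, had counts in at least 6 cells of each group. Of all such genes only 10.4% were past 2-fold, so the low shares are near those of other steadily detected genes. Among the genes past 2-fold, Sdha, the catalytic subunit of succinate dehydrogenase in complex II, had counts in 8 of 8 adult cells, from 9.21 over 473 to 4154 CPM. In transplanted cells it had counts in 3 of 8, and the highest had 378 CPM. The ranges overlapped, and the sum was 22.1-fold higher in adult cells (17.3 to 28.9, 12.6 without adult cell G, 72.4 without transplanted cell B). Its partner subunit Sdhb differed by 1.41 (1.36 to 1.46), at 5699 and 4050 CPM. Ndufab1, the acyl carrier of complex I, was 2.87-fold higher in transplanted cells (2.23 to 3.72, 4.71 without adult cell D). Uqcrc1, a core subunit of complex III, was 2.81-fold higher there (2.53 to 3.13), but 1.09 without transplanted cell E and 4.70 without adult cell A. Chchd3, a protein of the inner membrane folds, was 2.56-fold higher in adult cells (2.41 to 2.72).

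Fuel-use genes were mixed in direction. Of 26 measured genes of fatty acid uptake and oxidation 4 were past 2-fold in each direction. Of all measured genes 44.3% and 34.8% were, and of genes with counts in at least 6 cells of each group 10.4% in either direction. The median log2 ratio of the 26 genes was 0.10 (-0.07 without transplanted cell F to 0.41 without transplanted cell D). Fabp3, the fatty acid carrier of heart, had 6273 and 7183 CPM. Of 24 measured genes of the TCA cycle and pyruvate use, 5 were higher in adult and 6 in transplanted cells, and of 19 glycolysis genes 5 and 4. Single metabolic genes went either way. Acat1, the mitochondrial thiolase of ketone body and isoleucine breakdown, had counts in 7 of 8 transplanted cells, from 0 over 2335 to 4955 CPM. In adult cells it had counts in 5 of 8, from 0 over 12.9 to 1954 CPM, so the ranges overlapped. Its sum was 8.61-fold higher in transplanted cells (7.65 to 9.72, 31.5 without adult cell B).

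Oxct1, the enzyme that opens ketone body use in heart, had 748 CPM in 6 transplanted cells and 293 CPM in 7 adult cells, 2.56-fold higher in transplanted cells (2.27 to 2.89). Idh2, the mitochondrial NADP-dependent isocitrate dehydrogenase, ran from 9.98 over 713 to 2282 CPM in transplanted cells and from 0 over 171 to 867 CPM in adult cells. It was 3.96-fold higher in transplanted cells (3.50 to 4.49), and 3.25 to 5.77 when 1 cell was left out. Acat1, Oxct1 and Idh2 stayed past 2-fold without any single cell.

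Got2, the mitochondrial aspartate aminotransferase of the malate-aspartate shuttle, was higher in adult cells, with counts in 7 of 8, from 0 over 189 to 1277 CPM, and in 2 transplanted cells with at most 24.2 CPM. It had the highest ratio of the ranked genes, 95.8-fold (37.1 to 353, 56.1 without adult cell E, 347 without transplanted cell B), from 294 against 3.07 CPM. Hk2, the insulin-responsive muscle hexokinase that begins glucose use, had 316 CPM in 6 adult cells, from 0 over 304 to 700.2 CPM. Transplanted cell G alone had counts of it, at 209.7 CPM. Hk2 was 19.6-fold higher in adult cells (12.7 to 32.0, at least 127 without transplanted cell G). Ogdh, the oxoglutarate dehydrogenase of the TCA cycle, was 3.75-fold higher in adult cells (3.16 to 4.46, 11.7 without transplanted cell B). Each of these 3 genes had adult cells at or below the highest transplanted cell. Mb, myoglobin, which stores oxygen, was 1.18-fold higher in adult cells (1.17 to 1.20), at 28716 and 24276 CPM.

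**Figure D5:**
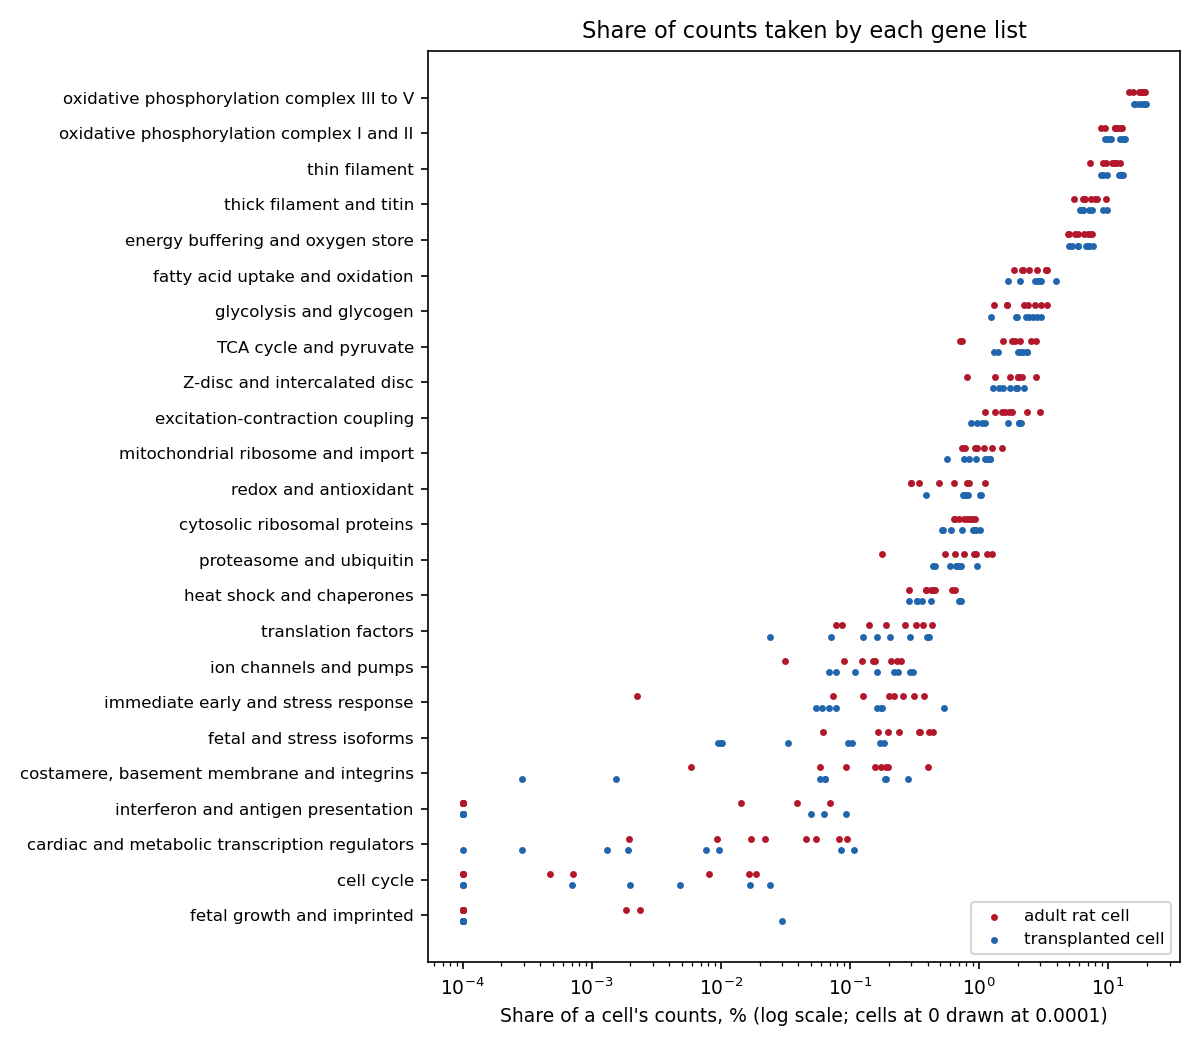
Share of each cell's counts, in percent on a log scale, taken by each of 24 gene lists, with adult cells in red and transplanted cells in blue, ordered by the transplanted share. The ranges of the groups overlap in every list.

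Stress and protein-folding genes also had members on both sides. Of 19 measured heat shock and chaperone genes 11 were higher in adult and 2 in transplanted cells, against 44.3% and 34.8% of all measured genes, and the list took 0.434% of adult and 0.441% of transplanted counts. The median log2 ratio was 2.16 (1.38 without adult cell B to 3.03 without transplanted cell G), against 0.37 over all measured genes. Its 3 members with counts in at least 6 cells of each group had a median of -0.74, with none past 2-fold in adult and 1 in transplanted cells. Hsp90ab1, the constitutive cytosolic chaperone HSP90 beta, was one of the 2. It ran from 5.81 over 2095 to 5431 CPM in the 8 transplanted cells and from 0 over 126 to 1855 CPM in adult cells. The ranges overlapped, and the ratio towards transplanted cells was 4.66 (4.25 to 5.12, 7.94 without adult cell E). Hspa9, the mitochondrial HSP70, was 5.15-fold higher in adult cells (4.28 to 6.25, 3.41 without adult cell D, 8.28 without transplanted cell G), with counts in 4 cells of each group. Prdx5, a peroxiredoxin, had a ratio of 2.77 towards transplanted cells (2.55 to 3.01) that rested on cell H, since it was 0.935 without that cell.

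Fam162a, Bnip3 and Mif, each known to be induced in low oxygen, were ranked higher in transplanted cells. No list of such genes was used, and these were put together after their values were seen. Hk2 and Ldha, which low oxygen is also known to induce, did not follow them. Hk2 was 19.6-fold higher in adult cells, and Ldha had a ratio of 1.12 towards transplanted cells that was 0.599 without transplanted cell H. Fam162a, a mitochondrial protein, had counts in 7 of 8 transplanted cells, from 0 over 806 to 2748 CPM, and in 3 of 8 adult cells, with a highest value of 414 CPM. It was 8.98-fold higher in transplanted cells (7.39 to 11, 14.5 without adult cell C, 16.4 without adult cell E). Bnip3, a receptor for mitochondrial clearance, was 3.14-fold higher (2.63 to 3.75, 1.75 without transplanted cell E, 5.83 and 5.04 without adult cells B and E). Mif, a cytokine, was 3.8-fold higher (3.10 to 4.68, 2.38 without transplanted cell C). All 3 ranges overlapped with those of the adult cells.

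Hypoxia-inducible factors bind sites with the core ACGTG, so the promoter windows of Fam162a and Bnip3 are shown in the same way, with ACGTG on either strand in capitals. Both genes lie on the minus strand.
Fam162a, chr16:36071562-36071811: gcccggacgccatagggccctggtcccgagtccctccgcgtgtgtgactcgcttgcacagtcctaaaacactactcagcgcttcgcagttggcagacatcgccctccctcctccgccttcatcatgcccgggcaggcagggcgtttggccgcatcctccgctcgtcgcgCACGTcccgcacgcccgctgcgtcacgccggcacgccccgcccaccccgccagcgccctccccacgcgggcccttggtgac
Bnip3, chr7:138909507-138909756: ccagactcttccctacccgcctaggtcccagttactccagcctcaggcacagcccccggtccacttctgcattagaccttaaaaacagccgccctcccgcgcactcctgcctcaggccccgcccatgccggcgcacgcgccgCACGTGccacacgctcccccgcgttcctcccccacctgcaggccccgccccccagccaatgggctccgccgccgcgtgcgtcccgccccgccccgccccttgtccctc
The Fam162a window held 1 match, beginning 81 bases before the start site. The Bnip3 window held 2 overlapping matches, 1 on each strand, 108 and 107 bases before it. The window of Mif held none. Unlike the other windows, that of Mif could not be matched to the start of a GENCODE transcript, so its start site is less sure. ACGTG was found in 16.6% of the 32851 windows, and a match is a description of the letters, not of binding.

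Among the remaining ranked genes, Sox2 and Ctsd stood out in adult cells. Sox2, a transcription factor of stem and neural cells, had counts in all 16 cells. It ran from 50.8 over 553 to 7616 CPM in adult cells and from 16.1 over 133 to 372 CPM in transplanted cells, with overlapping ranges. Its sum was 11.2-fold higher in adult cells (9.73 to 13), and 3.61-fold without adult cell A, which held the 7616 CPM. Cultured cells had 126 CPM. In mm10 the gene lies on chromosome 3 from 34650405 to 34652461, inside the longer noncoding gene Sox2ot on the same strand, so reads of both genes cannot be told apart here. Nanog, Klf4 and Tdgf1, the other listed pluripotency and early lineage markers, had no count in adult or transplanted cells.

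Ctsd, the lysosomal protease cathepsin D, ran from 0 over 1588 to 4499 CPM in adult cells and from 0 over 39.1 to 1454 CPM in transplanted cells. It was 5.78-fold higher in adult cells (5.16 to 6.48, 13.1 without transplanted cell F). Gabarap, a protein of the autophagosome membrane, was 2.84-fold higher (2.53 to 3.20, 4.63 without transplanted cell F). Nfe2l1, a transcription factor for proteasome genes, was 7.96-fold higher (4.45 to 15.5, 4.4 without adult cell A, 91.1 without transplanted cell D). The proteasome and ubiquitin list had 5 of 27 measured genes higher in adult and 8 in transplanted cells, against 44.3% and 34.8% of all measured genes. Rcan2, a regulator of calcineurin, was 6.42-fold higher in adult cells (5.46 to 7.58), but 1.77 without adult cell D and 10.8 without transplanted cell C.

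Snora81, a small nucleolar RNA gene inside Eif4a2, had counts in 8 adult cells, from 7.14 over 88.2 to 179 CPM, and in 5 transplanted cells with at most 45.0 CPM. It was 12.9-fold higher in adult cells (6.79 to 27.6, 20.1 without transplanted cell C), and its reads cannot be told apart from those of its host. Malat1 and Bola3 lie outside the ranking and were named for their values. Malat1, an abundant nuclear RNA, was 2.73-fold higher (2.46 to 3.02, 4.48 without transplanted cell G), at 1095 against 401 CPM, and cultured cells had 12256 CPM. Bola3, a factor in iron-sulfur cluster assembly, was 4.0-fold higher (3.48 to 4.61, 2.32 without adult cell A). Eif1, a translation start factor, was 8.31-fold higher (5.14 to 14.2, 2.48 without adult cell F, 19.9 without transplanted cell F).

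On the transplanted side Anapc11, a subunit of the anaphase-promoting ubiquitin ligase, had the highest ratio of the ranked genes, 11.5-fold (6.05 to 24.6, 6.66 without transplanted cell E). It had 90.6 CPM in 6 transplanted cells and 7.86 CPM in adult cell C alone, and was at least 34.0-fold higher without that cell. Tubb4b, a beta tubulin, was 3.55-fold higher (3.05 to 4.13, 5.76 without adult cell E). In mm10 it overlaps Fam166a on the other strand, which is also among the ranked genes. The strand setting is not given, so the reads of both may be shared. Churc1, a zinc finger protein, was 3.47-fold higher (3.06 to 3.94, 2.17 without transplanted cell H). Phb, prohibitin of the inner mitochondrial membrane, had a ratio of 3.76 (2.56 to 5.66, 6.32 without adult cell E) that rested on transplanted cell G at 1158 CPM, and was 0.466 without it.

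Lists of rarely detected genes had values on both sides and many zeros. Of 13 measured cardiac and metabolic transcription regulators, 9 were higher in adult and 4 in transplanted cells, against 44.3% and 34.8% of all measured genes, and the list took 0.0410% and 0.0192% of counts. Mef2a, a muscle transcription factor, was 192-fold higher in adult cells (34.0 to 7608), but 1.24-fold without adult cell A, and at least 59.0-fold without transplanted cell G. Of 14 genes of the costamere, basement membrane and integrins, which tie the sarcomere to the matrix, 8 were higher in adult and 6 in transplanted cells. None of the measured genes of these 2 lists was within 2-fold, and 86.3% of all genes at 10 to 100 CPM and 93.3% of those under 10 CPM were past it. Sgca, alpha-sarcoglycan, was 7.49-fold higher in transplanted cells (5.87 to 9.68, 4.93 without transplanted cell B, 15.4 without adult cell C). Cell cycle genes had 2 of 22 listed genes measured and took 0.00645% of adult, 0.00553% of transplanted and 0.236% of cultured counts.

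The ventricular markers, led by Myl2 and Myl3, took 6.70% of adult and 7.65% of transplanted counts. Atrial markers had 17 adult counts and none in transplanted cells. All macrophage and leukocyte markers that were listed (3 of 14) had 0 counts in both groups, which allows up to 0.000236% and 0.000230% of counts. Fibroblast markers had 5 and 1 counts, and Col1a2, Col3a1, Dcn, Pdgfra and Postn were at 0. Endothelial markers had no adult count and took 0.0216% of transplanted counts, from Fabp4 in 3 cells (167 CPM) and Ly6c1 in cell G (48.4 CPM), while Cdh5, Kdr, Eng, Egfl7 and Cav1 were at 0. Smooth muscle and pericyte markers had 1251 adult and 345 transplanted counts, and single cells had 0.00651 to 0.235% and 0.00352 to 0.0721%. Acta2 held 666 of these adult counts and 1 of the transplanted counts, while Cnn1, Pdgfrb and Cspg4 were at 0. The most abundant member was Des, the muscle filament protein desmin, so the list does not mark smooth muscle and pericytes alone. Neural and glial markers took 0.187% and 0.231%. Ptgds, a prostaglandin synthase that was the measured neural and glial marker, had 1871 CPM in adult and 2307 CPM in transplanted cells and no count in cultured cells. The part of these markers in the differences above was not tested.

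Some genes common in cultured cells were missing from adult and transplanted cells. Of 128 genes with counts in at least 6 cultured cells, 31 were at 0 in adult and 40 in transplanted cells. In both groups 19 were at 0, among them H19, an imprinted fetal growth gene. Of all 9595 listed genes 4858 were at 0 in both groups, a larger share. The lengths of the genes past 2-fold depended on the set of genes. Over all measured genes, union exon length had a median of 4286 bp in genes higher in adult cells and 3829.5 bp in genes higher in transplanted cells. It was 2689.5 bp in genes within 2-fold. Among genes with counts in at least 6 cells of each group the order was reversed. There it was 2434 bp (12 genes) and 3701 bp (11 genes), with 1912 bp within 2-fold. The part of length in the ratios was not tested. The counts carry no sequence, so the species of a library could not be checked.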

How the data were processed

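RNA of single cells was copied by SMARTscribe reverse transcriptase, amplified for 19 cycles and cut with Tn5, per the labels' protocols. For every gene and cell, the authors deposited a whole-number count. The submitters' processing notes list TopHat2 2.1.0, HTSeq, DESeq2 and mm10, a mouse build, also for rat cells. None of the annotation, the strand setting or the choice of the 9595 genes is given in the sources used here.

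Counts were summed over the 8 cells of a group and divided by the group's total (1271528 adult, 1302871 transplanted). CPM carry exact Poisson intervals, ratios exact conditional binomial intervals and shares Clopper-Pearson intervals, at 95%. List medians used a pseudocount of 1 CPM. Groups followed the labels, and letters only name cells. Cells within a group differed by more than sampling noise (chi-square per degree of freedom at least 44.3). Members and the 24 function and 8 marker lists were chosen with earlier results of these data known. Named genes are the 15 highest ratios per direction, the 10 largest CPM differences, the 3 most abundant members of each list, the paired isoforms and the 20 most abundant genes, of which a part is printed. Smpx, Malat1, Gabarap, Bola3, Chchd3, Oxct1, Cox20, Rplp2, Ak1, Gng5, Cycs, Mlf1, Vdac2, Mrpl33, Ogdh, Mybpc3, Rn45s and H19 were named because of their values where that rule does not hold them. Lengths and positions came from GENCODE M21, promoters from RefSeq. Other settings tried were scaling by TMM (edgeR 4.0.16) or by size factors (DESeq2 1.42.0), without fitting a model, the plain mean over cells, other count minimums, and each cell left out. The ratio code was tested on simulated data. Some results are not reported here.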

Additional observations from a re-analysis of the deposited data

Results flagged for a closer look

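In 157 sets of 8 cells (a gene or list found in 6 or more of them, a total or a number of genes, in 1 group), 30 had a highest or lowest cell whose gap to the next cell passed 0.526 of the range. Chance flags about 1 in 20 sets of normally distributed values, but values of single cells are skewed and some sets share counts, so the chance rate here was not tested. No cause was tested for any of them.

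Adult cell F stood highest for 7 genes: Lmod2 (4312 CPM), Casq2 (2377 CPM), Chchd3 (8715 CPM), Ogdh (1806 CPM), Ak1 (5574 CPM), Eif1 (1032 CPM) and Cmya5 (1106 CPM). Adult cell D stood highest for the beta myosin heavy chain Myh7 (885.5 CPM), the stretch gene Ankrd1 (2793 CPM), Ndufab1 (253.9 CPM) and Rcan2 (5378 CPM). Adult cell A stood highest for Sox2 (7616 CPM), and so for the pluripotent and early lineage list at 0.7616% of counts, and also for Actc1 (26298 CPM) and Nfe2l1 (245.8 CPM). Single adult cells further stood apart for Atp2a2 in cell H (10921 CPM), Got2 in cell E (1277 CPM) and Gabarap in cell G (2187 CPM).

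Transplanted cell H had by far the most counts (344224) and the highest Prdx5 (4622 CPM). Transplanted cell C stood highest for Fam162a (2748 CPM), Mif (2207 CPM) and the share of immediate early and stress genes (0.5338%), and lowest for the share of redox and antioxidant genes (0.3919%). Transplanted cell F stood highest for Ptgds (8695 CPM), which made up the neural and glial share of 0.8695%. Other transplanted cells stood highest for Lmod2 in cell B (1047 CPM), Uqcrc1 in cell E (4669 CPM), Phb in cell G (1158 CPM) and Malat1 in cell G (2286 CPM).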

How the results depend on the processing

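The count of 1551 genes at least 2-fold higher in adult cells became 886 with a minimum of 50 counts, 626 among genes with counts in both groups and 12 among genes with counts in at least 6 cells of each group, the last chosen after seeing the data. The count of 1218 genes higher in transplanted cells became 796, 574 and 11. All 3 settings count fewer genes by construction. The other 46 values of these counts, among them TMM factors, size factors, equal cell weights and each cell left out, were within 1.5 times. TMM and size factors moved every log2 ratio by 0.0031 and -0.035. Among named log2 ratios (adult over transplanted) past 2-fold, leaving out 1 cell reversed 3, and smaller ones such as those of Atp2a2, Nppb and Ldha also changed side. The log2 ratio of Myh7 ran from -0.39 to 3.91, negative without adult cell D. The log2 ratio of Prdx5 ran from -1.93 to 0.10, positive without transplanted cell H. The log2 ratio of Phb ran from -2.66 to 1.10, positive without transplanted cell G. The cause was not tested. Among all settings, 521 values of the named gene ratios lay outside the counting interval and 803 within it. For list medians, 13 values moved by more than the largest shift from leaving out 1 cell and 696 did not. The 696 include the values without 1 cell, which set that limit and could not pass it. They are thus no measure of stability. No paired analysis was possible because no result comes from a test and the letters only name cells. Depth limits the rest: 0 counts in a group allow up to 2.36 CPM in adult and 2.30 CPM in transplanted cells.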

Other observations

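Few genes had counts in several cells of one group and none in the other. Of 4737 genes with a count, 22 had counts in at least 4 adult cells and none in transplanted cells. The reverse held for 6 (Apip, Clpp, Pdlim7, Ptges3, Riok3 and Tmem70). All were named after their values were seen. With at least 6 cells there were 0 in either direction. Adult cells also had more genes detected per cell, with thinned medians of 865.5 against 724.5, and the part of this in 22 against 6 was not tested. Of the 22, Ccdc38, Eprs, Nceh1 and Snrpf had counts in 5 adult cells. Eprs is the glutamyl-prolyl transfer RNA synthetase, Snrpf a core protein of the spliceosome, Clpp a protease of the mitochondrial matrix and Ptges3 a cochaperone of HSP90.

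Of 11 measured immediate early and stress genes 6 were at least 2-fold higher in adult and 4 in transplanted cells, against 44.3% and 34.8% of all measured genes. Of 19 translation factors 7 and 3 were, and of 29 genes of the mitochondrial ribosome and import 7 and 6. Of 50 cytosolic ribosomal protein genes 9 were higher in adult and 6 in transplanted cells, and the list took 0.770% and 0.735% of counts. Redox and antioxidant genes took 0.607% of adult and 0.812% of transplanted counts, with 3 of 16 genes higher in adult and 2 in transplanted cells, and their cell ranges overlapped.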
